A study of Mus musculus with 8 samples.

Results

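The Hippo pathway, its angiomotin regulators and the targets of YAP are described here by 10 genes in a mouse pre-iPSC clone: Yap1, Wwtr1, Tead1, Tead4, Amot, Amotl1, Amotl2, Ankrd1, Ccn1 and Ccn2. They were taken by name from 19938 genes on the arrays, each through its probe set with the highest mean value, and they were chosen by measured values of these same arrays, a lower Ankrd1 value with treatment and an Amot value that goes up with time. For these 10 genes the treatment and time contrasts are therefore descriptions: no p-value is printed for them, and how many passed the threshold of the fit over all genes is given as a count from which nothing is read. The 10 genes are tested only for the difference between the time courses, and genes of other pathway lists are tested in every contrast. All 10 genes were found, 9 of them with 1 probe set and Tead1 with more than 1. The cells, MaF pre-iPSC9P2 in the labels, are 1 clone that reprogramming left partway between a somatic and a pluripotent state. All cells grew on feeder cells in medium for mouse embryonic stem cells, and feeder cells were removed after trypsin before RNA was taken. Vitamin C was present at 50 µg/ml from day 2 in the vitamin C group and absent from the untreated group, with 1 array per group on each of days 3, 4, 5 and 6, so 4 arrays per group. Which factors were introduced into the clone, and its genotype, were not used here.

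Hippo signalling is a kinase cascade that links cell contact and cytoskeletal tension to transcription. The kinases MST1 and MST2 activate LATS1 and LATS2, which phosphorylate the co-activators YAP (Yap1) and TAZ (Wwtr1) and keep them out of the nucleus. Where the cascade is off, YAP and TAZ bind TEAD transcription factors and raise targets such as Ccn1, Ccn2 and Ankrd1. Angiomotins (Amot, Amotl1, Amotl2) are junction and actin-binding proteins that hold YAP in the cytoplasm. In the early mouse embryo this pathway separates the outer trophectoderm, where YAP and TEAD4 act, from the inner cells that become pluripotent. RNA levels do not show how much YAP is phosphorylated or nuclear.

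TEAD factors bind the core GGAATG, so the promoter windows of the targets and angiomotins are shown with it. RefSeq windows (build GRCm38.p6, 250 bases before to 50 after an annotated start) were given for 7 of the 10 genes and not for Tead1, Tead4 and Ccn2. In the 4 windows below, printed 5′ to 3′ on the strand of the gene, capitals mark GGAATG on either strand (CATTCC on the other). Ankrd1 and Ccn1 are shown as targets, Amotl2 as an angiomotin with the core and Amot as the angiomotin whose RNA changed most with time.
Ankrd1 chr19:36119795-36120094, strand minus: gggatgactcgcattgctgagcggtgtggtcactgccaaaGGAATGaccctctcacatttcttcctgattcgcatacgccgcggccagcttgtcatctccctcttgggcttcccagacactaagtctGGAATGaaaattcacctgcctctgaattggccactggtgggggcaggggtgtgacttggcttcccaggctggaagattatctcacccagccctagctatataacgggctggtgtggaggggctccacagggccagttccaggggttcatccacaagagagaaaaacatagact
Ccn1 chr3:145649936-145650235, strand minus: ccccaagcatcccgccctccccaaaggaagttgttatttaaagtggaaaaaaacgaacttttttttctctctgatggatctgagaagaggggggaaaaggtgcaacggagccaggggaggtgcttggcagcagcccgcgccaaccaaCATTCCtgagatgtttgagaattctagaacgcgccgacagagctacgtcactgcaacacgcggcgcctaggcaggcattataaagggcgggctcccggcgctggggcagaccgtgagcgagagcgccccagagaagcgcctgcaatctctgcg
Amotl2 chr9:102717554-102717853, strand plus: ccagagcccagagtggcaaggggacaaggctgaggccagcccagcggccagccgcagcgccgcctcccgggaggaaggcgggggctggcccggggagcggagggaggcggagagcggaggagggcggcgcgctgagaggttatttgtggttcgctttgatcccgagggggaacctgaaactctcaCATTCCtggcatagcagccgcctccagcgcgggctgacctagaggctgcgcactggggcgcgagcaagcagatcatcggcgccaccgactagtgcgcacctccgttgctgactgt
Amot chrX:145487590-145487889, strand minus: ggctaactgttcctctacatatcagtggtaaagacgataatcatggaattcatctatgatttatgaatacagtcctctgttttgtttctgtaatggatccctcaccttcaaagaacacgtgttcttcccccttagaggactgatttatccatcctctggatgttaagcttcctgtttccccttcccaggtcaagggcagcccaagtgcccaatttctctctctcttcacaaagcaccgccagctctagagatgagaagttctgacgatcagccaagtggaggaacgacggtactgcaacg

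The core stood at -210 and -123 from the annotated start of Ankrd1, at -103 in Ccn1, at -65 in Amotl2, at -141 in Yap1 and at -136 in the first of 2 Wwtr1 windows, which overlap and hold the same match. It was thus found in 6 of 8 windows, from 5 of the 7 genes, and in 14.7% of all 32851 windows of the table. The windows of Amot and Amotl1 had no match. Neither the AP-1 site TGANTCA, present in 7.81% of all windows, nor a CArG box, the site of serum response factor, present in 1.63%, was found in a window of these genes. These matches describe letters in 300 bases and not binding, and the Amot window is not at the outermost annotated start of that gene.

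The arrays had pairwise correlations from 0.977 to 0.994. Values are RMA values on a log2 scale, on which a difference of 1 is a doubling, and levels of different genes are not compared because each probe set has its own brightness. Among markers of the labelled cell type, Pou5f1 averaged 12.03 with vitamin C and 12.10 in untreated cells, while Zfp42, Esrrb and Dppa4 lay under the median of all gene means (4.70), 3 of the 12 pluripotency markers. Of these 12, 11 were higher with vitamin C and Pou5f1 was not, with a median difference of 0.87 and 3 past the test (Nanog, Dppa5a and Utf1). Feeder or fibroblast markers lay lower with vitamin C for 26 of 29 genes, with 2 of 29 past the test (Col5a2 and Fbln2) and a median difference of -0.39. Their summed level, on the linear scale, ran from 3632 to 5420 with vitamin C and from 4608 to 8225 in untreated cells, with Fap, Lum and Tcf21 under the median of all gene means. Of 10 epithelial markers, 10 were higher with vitamin C (median difference 0.80) and 4 passed the test. Over all genes, 0.537% were called higher and 0.216% lower with vitamin C. Endothelial and blood cell markers had medians of -0.08 and -0.00, with 5 of 8 and 6 of 8 genes under the median of all gene means. In bulk RNA, fewer cells of a type and less RNA per cell cannot be told apart.

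**Figure D1:**
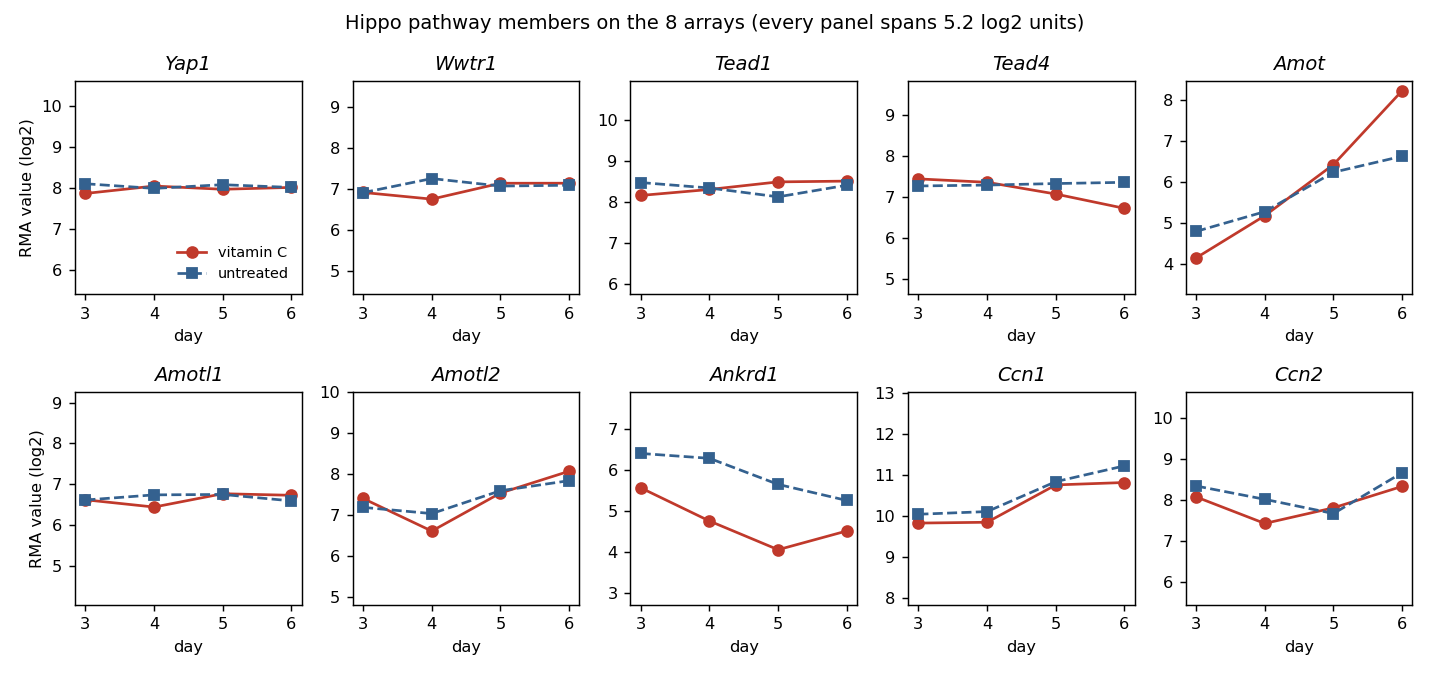
RMA values (log2) of the 10 genes by day, 1 point per array, vitamin C as red circles and untreated as blue squares; every panel spans the same number of log2 units. Ankrd1 lies lower with vitamin C on all 4 days, Amot goes up in both groups to 8.24 with vitamin C and 6.64 in untreated cells on day 6, and the lines of Yap1, Wwtr1, Tead1 and Amotl1 stay nearly flat.

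The co-activators and Tead1 varied little. Yap1 averaged 7.99 ± 0.08 with vitamin C and 8.06 ± 0.05 in untreated cells (SD over the 4 days, 1 array per day and group). Its mean difference was -0.07 ± 0.11 (moderated SE from limma, 4 arrays per group). Wwtr1, which encodes TAZ, ran from 6.75 to 7.14 with vitamin C and from 6.91 to 7.25 in untreated cells, and its largest daily difference was -0.50 on day 4. The groups overlapped for both genes. The 95% interval of the vitamin C difference was -0.31 to 0.17 for Yap1 and -0.38 to 0.19 for Wwtr1.

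Tead1, a DNA-binding partner of YAP, ran from 8.17 to 8.52 with vitamin C and from 8.13 to 8.48 in untreated cells. Its mean difference was 0.03 ± 0.13. A second probe set of the gene gave 0.07.

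Tead4, the TEAD factor of the mouse trophectoderm, had values that moved apart on the later days. With vitamin C it read 7.43, 7.35, 7.06 and 6.71 on days 3, 4, 5 and 6, and in untreated cells 7.26, 7.28, 7.32 and 7.35. The vitamin C arrays thus went down on each later day while the untreated arrays stayed close together, and on day 6 the vitamin C level was 0.644 times the untreated one. The slope was -0.24 ± 0.06 per day with vitamin C and 0.03 ± 0.06 in untreated cells.

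Among the angiomotins, Amot changed most. On days 3, 4, 5 and 6 it read 4.15, 5.18, 6.43 and 8.24 with vitamin C, and 4.80, 5.28, 6.24 and 6.64 in untreated cells. Both series were higher on every later day, vitamin C from below the untreated array on days 3 and 4 to above it on days 5 and 6. From day 3 to day 6 the measured values increased 16.9-fold with vitamin C and 3.57-fold in untreated cells. The vitamin C value of day 3 lay under the medians of all 8 arrays, and with no detection call used here it is not known to be above background. The slopes were 1.35 ± 0.08 and 0.65 ± 0.08 log2 units per day with vitamin C and in untreated cells. Markers of several kinds moved alongside. The mean of the 9 trophoblast markers was 4.31 on day 3 and 5.72 on day 6 with vitamin C, and 4.39 and 4.73 in untreated cells, that of the 12 pluripotency markers 6.66 and 8.05 with vitamin C and 6.11 and 6.69 in untreated cells, and that of the 10 epithelial markers 6.87 and 8.43 with vitamin C and 6.45 and 7.25 in untreated cells. Their part in the course of Amot was not tested.

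Amotl1, another angiomotin gene, varied little. It ran from 6.45 to 6.77 with vitamin C and from 6.60 to 6.76 in untreated cells, and its slopes were 0.07 ± 0.07 and -0.01 ± 0.07 per day.

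Amotl2, an angiomotin gene that is also a YAP target, dipped on day 4 and was highest on day 6 in both groups. It read 7.40, 6.61, 7.54 and 8.07 with vitamin C on days 3 to 6, and 7.19, 7.04, 7.59 and 7.84 in untreated cells. The mean difference was -0.01 ± 0.13, and the slopes were 0.29 ± 0.13 and 0.25 ± 0.13 per day. Its slope with vitamin C was 0.07 without the day 6 array and 0.73 without the day 3 array of that group.

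Of the classical YAP targets, Ankrd1, a nuclear and sarcomeric ankyrin repeat protein known from strained heart and muscle, was the one with the large treatment difference. With vitamin C it read 5.56, 4.75, 4.05 and 4.51 on days 3 to 6, and in untreated cells 6.40, 6.28, 5.64 and 5.25. Each vitamin C array lay under the untreated array of its day, with differences of -0.84, -1.53, -1.59 and -0.74, although the groups overlapped because the untreated array of day 6 lay under the vitamin C array of day 3. The mean of 4.72 ± 0.63 with vitamin C against 5.89 ± 0.54 in untreated cells (SD over the 4 days) amounts to a measured level 0.442 times the untreated one. On day 6 Ankrd1 stood at 0.482 times its day 3 level with vitamin C and at 0.451 times in untreated cells. With vitamin C its slope was -0.39 ± 0.11 per day, -0.12 without the day 3 array and -0.75 without the day 6 array of that group. Untreated cells had a slope of -0.41 ± 0.11. The vitamin C values of days 5 and 6 lay under the median of all gene means (4.70), that of day 5 also under every array median, so these ratios rest on values not known to be above background.

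Feeder or fibroblast markers were lower in the same arrays, by a median of -0.40, -0.65, -0.46 and -0.14 on days 3 to 6. With their mean in place of day in the model, the difference of Ankrd1 was -0.64, against -1.18 ± 0.16 with day. Over 14 alternatives it lay between -1.32 and -0.64. The same change of model took Ccn1 from -0.24 to -0.82, Amotl2 from -0.01 to -0.42 and Amot from 0.26 to -0.98. Yap1, Wwtr1, Tead1, Tead4, Amotl1 and Ccn2 moved by less than the SD of their daily differences. The part of the markers in the difference of Ankrd1 was not tested.

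The other targets had smaller mean treatment differences. Ccn1, a secreted matricellular protein (CYR61), read 9.84, 9.86, 10.77 and 10.83 with vitamin C on days 3 to 6, and 10.05, 10.12, 10.85 and 11.23 in untreated cells. It was lower with vitamin C on all 4 days, with a mean difference of -0.24 ± 0.11, while from day 3 to day 6 it changed by 0.99 log2 units with vitamin C and by 1.18 in untreated cells. Its slopes were 0.39 ± 0.09 and 0.43 ± 0.09 per day. Being lower on all 4 days was shared by 11.1% of all genes, and held for 2 of the 10 genes here, Ankrd1 and Ccn1. Being higher on all 4 days held for 0 of the 10, against 9.29% of all genes.

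Ccn2, the connective tissue growth factor gene, read 8.08, 7.43, 7.81 and 8.34 with vitamin C on days 3 to 6, and 8.35, 8.02, 7.67 and 8.67 in untreated cells. The lowest array was that of day 4 with vitamin C and that of day 5 in untreated cells, and both series were highest on day 6. The mean difference was -0.26 ± 0.13 with daily differences of either sign, and its slope with vitamin C ran from -0.13 to 0.45 depending on the array left out, the lowest without day 6 and the highest without day 3.

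**Figure D2:**
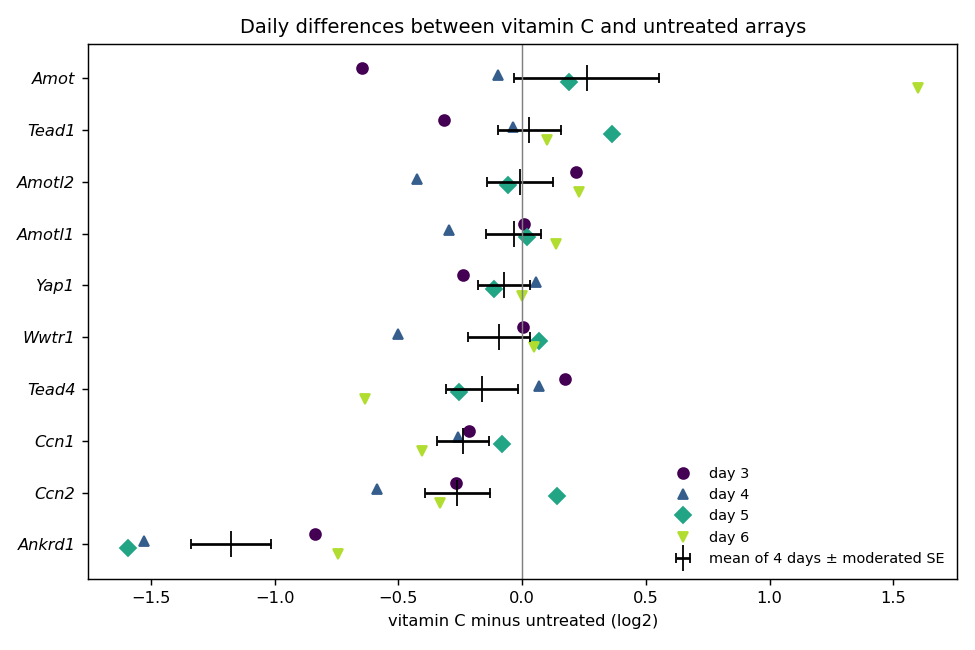
Vitamin C minus untreated (log2) for each gene on each day, with the mean of the 4 days and its moderated SE in black. All 4 points of Ankrd1 lie between -1.59 and -0.74, the points of Amot spread from -0.65 on day 3 to 1.60 on day 6, and those of the other genes lie between -0.64 and 0.37.

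The vitamin C and untreated arrays overlapped for all 10 genes, whereas 4.71% of all genes had groups that did not overlap, 2.1% higher and 2.61% lower with vitamin C. Across the 10 genes, 8 had a mean difference below 0, as did 10334 of all 19938 genes, with a median of -0.08 beside -0.01 over all genes. At an adjusted p under 0.05 the fit called 0.752% of all genes in either direction (0.537% higher and 0.216% lower with vitamin C), and 1 of the 10, Ankrd1, a count that the choice of Ankrd1 fixes. Ankrd1 was not called without day 4 (-1.06), without day 5 (-1.04), with day left out of the model or with the marker mean in its place. On single days, which have no replicate, at least 2-fold lower values with vitamin C were found for Ankrd1 on days 4 and 5, when 0.451% and 0.266% of all genes were so much lower. Amot was at least 2-fold higher on day 6 (3.03 times), as were 1.51% of all genes. In the other daily comparisons 0 of the 10 passed 2-fold. All genes did so for 0.371% (higher) and 0.301% (lower) on day 3, 0.642% (higher) on day 4, 0.963% (higher) on day 5 and 0.306% (lower) on day 6.

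For the slopes, the fit called 3 of the 10 genes with vitamin C (Amot and Ccn1 upward, Tead4 downward), beside 8.64% of all genes (5.25% upward and 3.39% downward), and 2 of the 10 in untreated cells (Amot and Ccn1 upward), beside 1.75% of all genes (0.782% upward and 0.968% downward). From day 3 to day 6, at least 2-fold increases were found for Amot with vitamin C (3.3% of all genes) and for Amot and Ccn1 in untreated cells (1.18%), and at least 2-fold decreases for Ankrd1 with vitamin C (1.35%) and in untreated cells (1.16%). The slope calls of Ccn1 with vitamin C and of Amot in untreated cells were lost without the day 3 or day 6 array of their group. Those of Tead4 with vitamin C and of Ccn1 in untreated cells were lost without any of several single arrays, the slopes lying between -0.32 and -0.19 for Tead4 and between 0.39 and 0.56 for Ccn1. Nothing is read from these counts, since Amot was chosen for its course in time.

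The question left for a test was whether the course in time differed between the groups, which is the slope with vitamin C minus the slope without. Amot was chosen for its rise with time in these same values, so its p-value here may be affected by that choice. The limma test called 0 of the 10 genes (0.0652% of all genes passed). An unadjusted p under 0.05 was found for 2 of them, Amot and Tead4, and for 2244 of all 19938 genes. The slope of Amot with vitamin C exceeded the untreated one by 0.70 ± 0.12 per day (95% interval 0.44 to 0.97, limma adjusted p = 0.0878). This difference passed with the dim genes left out (limma adjusted p = 0.0347) and with trend and robust options (limma adjusted p = 0.0171), and its adjusted p ranged from 0.0171 to 0.425 over 16 alternatives, the highest without the untreated array of day 6. Tead4 differed by -0.27 ± 0.08 per day (95% interval -0.46 to -0.09, limma adjusted p = 0.26). For Ankrd1 the slopes differed by 0.02 ± 0.16 (95% interval -0.33 to 0.38), for Ccn1 by -0.04 ± 0.12 (-0.31 to 0.23) and for Ccn2 by 0.05 ± 0.20 (-0.40 to 0.50). The remaining 5 genes had adjusted p-values from 0.543 to 0.959 in limma.

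**Figure D3:**
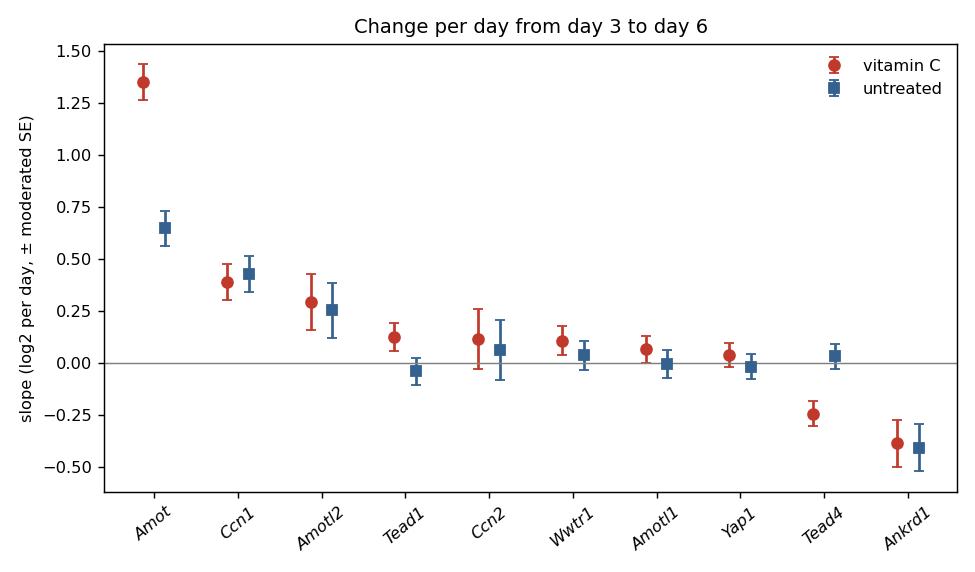
Slope of each gene in log2 units per day from day 3 to day 6, with moderated SE, for vitamin C (red circles) and untreated cells (blue squares). Amot has the steepest slopes in both groups (1.35 and 0.65), Ankrd1 the most negative ones (-0.39 and -0.41), and the slopes of Tead4 (-0.24 with vitamin C and 0.03 in untreated cells) have opposite signs, a difference that did not pass the test.

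The closest profiles to Ankrd1 and Amot over the 8 arrays were looked up among all genes, as the root mean square difference between log2 profiles after each was centred on its mean. Ankrd1 itself spread by 0.78 on that measure. Acta2, smooth muscle actin, lay nearest with 0.15, followed by Pop1, an RNase P subunit gene (0.23), Fibin (0.27), Fbln5, an elastic fibre gene (0.27), and the actin gene Actg2 (0.28). Acta2 read 9.51, 8.78, 8.39 and 8.45 with vitamin C on days 3 to 6, and 10.55, 10.22, 9.75 and 9.08 in untreated cells. Within the 10 genes, the one nearest to Ankrd1 was Tead4, at 0.69, so its fellow YAP targets Ccn1 and Ccn2 were farther from it than that.

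Amot spread by 1.20. Pga5, a pepsinogen gene (0.32), Gpc3, a glypican gene (0.32), Car4, a carbonic anhydrase gene (0.33), Igfbp2 (0.36) and Trh, the thyrotropin-releasing hormone gene (0.39), were nearest. Gpc3 read 4.70, 5.75, 6.54 and 7.73 with vitamin C on days 3 to 6, and 4.92, 5.39, 6.09 and 6.83 in untreated cells. Of the 10 genes, Ccn1 was nearest to Amot, at 0.85. Such likeness over 8 arrays of 1 clone, which share the course in time, is a description only.

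**Figure D4:**
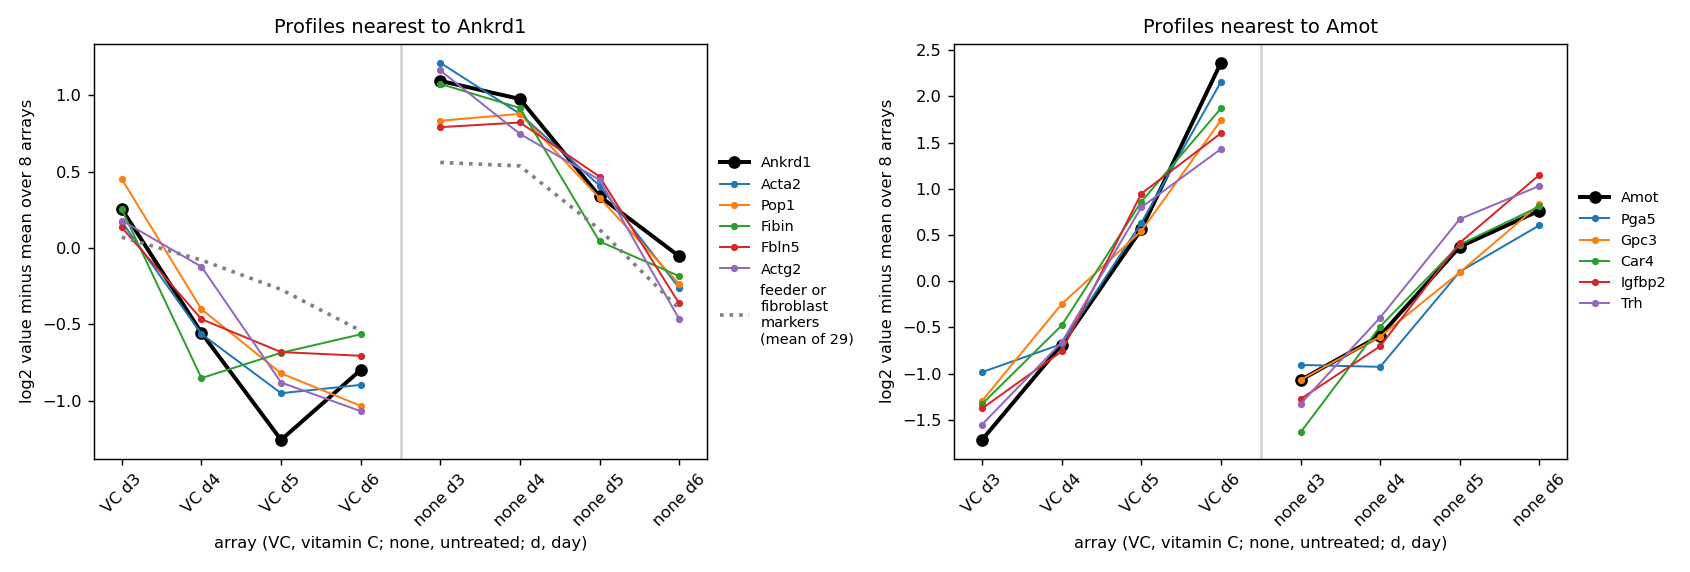
Log2 values minus each gene's mean over the 8 arrays, vitamin C arrays left of the grey line and untreated arrays right of it; black is Ankrd1 (left panel) or Amot (right panel), colours are the 5 nearest genes and the dotted line is the mean of 29 feeder or fibroblast markers. Acta2 follows Ankrd1 to within 0.15 on average, and the marker mean falls in the same direction with a smaller range.

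The rest of the pathway was examined through 73 measured genes of 5 lists. Of all 19938 genes, limma called 0.752% for vitamin C over days, 8.64% for the slope with vitamin C and 1.75% for the untreated slope. An unadjusted p under 0.05 held for 2531, 4956 and 3399 of them, in the same order. Of 28 kinases and upstream regulators, 0 passed for vitamin C over days in limma, with 4 at an unadjusted p under 0.05 and a median of -0.12. The lowest p-values belonged to Fat4, an atypical cadherin gene, with -0.55 ± 0.10 (limma adjusted p = 0.0546), and Rassf1, with -0.37 ± 0.11 (limma adjusted p = 0.177). Fat4 averaged 3.87 with vitamin C and 4.42 in untreated cells, under the median of all gene means (4.70), and is not known to be above background. Over time with vitamin C, 1 of 28 rose, Wwc1, which encodes the upstream regulator KIBRA (0.27 ± 0.06 per day, limma adjusted p = 0.0229), and 1 fell, Sav1, the scaffold of the MST kinases (-0.26 ± 0.06 per day, limma adjusted p = 0.0256). Both missed the threshold without the vitamin C array of day 3, 5 or 6 (slopes 0.25 to 0.33 for Wwc1 and -0.29 to -0.25 for Sav1 over all alternatives). In untreated cells 0 of 28 passed in limma, with 3 at an unadjusted p under 0.05, and Fat4 and Map4k4 had slopes of -0.27 and -0.18 per day. The LATS kinase genes Lats1 and Lats2, named after their values were seen, differed by -0.07 and -0.32 with vitamin C and did not pass (limma adjusted p = 0.855 and 0.296).

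The 6 other TEAD and vestigial-like genes, which encode TEAD factors or cofactors that bind them, had 0 calls by limma in every comparison, with at most 1 unadjusted p under 0.05. Tead3 had the lowest p for vitamin C, with 0.21 ± 0.13, and Vgll2 the next, with -0.22 ± 0.17. Vgll2 averaged 4.05 with vitamin C and 4.27 in untreated cells, under the median of all gene means (4.70), and is not known to be above background. Vgll3 read 6.22, 5.34, 5.35 and 4.97 in untreated cells, a slope of -0.37 ± 0.09 per day (limma adjusted p = 0.0789), and -0.17 ± 0.09 with vitamin C.

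Of 14 genes listed as angiomotin or junction partners, 4 rose with time in vitamin C cells: Pard6b, a polarity gene (0.37 ± 0.06 per day), Mpp5, also named Pals1 (0.33 ± 0.07), Crb3, the epithelial Crumbs gene (0.40 ± 0.08), and Patj, which encodes an angiomotin-binding scaffold (0.35 ± 0.08). Their limma adjusted p-values ran from 0.00511 to 0.0197, where 5.25% of all genes were called upward. The list's median slope was 0.12 against -0.02 over all genes. Pard6b read 5.92, 6.21, 6.56 and 7.05 with vitamin C on days 3 to 6, and 5.64, 5.72, 5.92 and 6.23 in untreated cells. Each of the 4 missed the threshold without the vitamin C array of day 6, and Mpp5 and Crb3 also without that of day 3 (limma adjusted p up to 0.208). In untreated cells 0 of 14 passed in limma, with 4 at an unadjusted p under 0.05, Crb3 and Patj having slopes of 0.33 and 0.28 per day. For vitamin C over days 0 of 14 passed in limma, with 7 at an unadjusted p under 0.05, beside 2531 of all 19938 genes. Pard6b (0.56 ± 0.12, limma adjusted p = 0.0788) and Crb3 (0.47 ± 0.11, limma adjusted p = 0.109) had the smallest p. Patj (0.30) and Nedd4l (0.24) were also higher, while Nedd4 (-0.34), Mpdz (-0.51) and Lin7c (-0.33) were lower. Mpdz averaged 4.45 with vitamin C, under the median of all gene means (4.70), and is not known to be above background there. Of the 14 differences 8 lay below 0, with a median of -0.04. Epithelial markers rose in the same arrays, with a median difference of 0.80 and a median slope of 0.40 per day with vitamin C, and their part in these slopes was not tested.

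Of 20 further YAP and TEAD targets, listed mainly from work on human cells, 2 fell with vitamin C over days, 0 rose and 18 did not pass. Over all genes 0.216% were called lower and 0.537% higher. The differences of 18 targets lay below 0 (median -0.18), as did those of 10334 of all 19938 genes (median -0.01). Axl, a receptor tyrosine kinase gene, read 7.14, 6.69, 6.14 and 5.77 with vitamin C on days 3 to 6, and 7.56, 7.51, 7.18 and 7.11 in untreated cells, a difference of -0.90 ± 0.15 (limma adjusted p = 0.0349). Ccdc80, a secreted matrix protein gene, differed by -0.74 ± 0.13 (limma adjusted p = 0.0415). Both missed the threshold with quantile normalization again (limma adjusted p = 0.0522 and 0.053), with day left out of the model (limma adjusted p = 0.312 and 0.504) and without day 4, 5 or 6, the last with differences from -0.93 to -0.76 for Axl and from -0.77 to -0.63 for Ccdc80. With the marker mean in place of day they differed by -0.52 and -0.23 (limma adjusted p = 0.405 and 0.659).

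Over time with vitamin C, 4 of these 20 targets fell and 2 rose, beside 3.39% and 5.25% of all genes. Axl fell by 0.46, Nt5e, the ecto-nucleotidase CD73, by 0.48, Ccdc80 by 0.43 and the RNA-binding protein gene Rbms3 by 0.32 log2 units per day, while Igfbp3, an insulin-like growth factor binding protein gene, rose by 0.78 and F3, tissue factor, by 0.39 (limma adjusted p from 0.00171 to 0.0348). F3 missed the threshold in 5 of 15 alternatives, with slopes from 0.18 to 0.71, and of the 6 only Axl passed in all of them. The other 5 missed it without the vitamin C array of day 6, Ccdc80 and Rbms3 also without that of day 3, and F3 also without that of day 5 or an untreated array of day 3, 4 or 5. In untreated cells 2 of 20 fell, beside 0.968% of all genes: Rbms3 (-0.37 ± 0.06 per day, limma adjusted p = 0.0155) and Thbs1, the thrombospondin gene (-0.44 ± 0.08 per day, limma adjusted p = 0.0199). Both missed the threshold without the untreated array of day 3 or day 6, Thbs1 also without that of day 4. Rbms3 averaged 4.47 with vitamin C and 4.75 in untreated cells, near the median of all gene means (4.70), and is not known to be above background. Feeder or fibroblast markers went down with time as well, with median slopes of -0.21 with vitamin C and -0.35 in untreated cells, and their part in these slopes was not tested.

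Among 6 relatives of the CCN and ANKRD genes, Ccn4, another matricellular gene of the CCN family, fell in 3 comparisons. Over all genes, 0.216% were called lower for vitamin C, 3.39% for the slope with vitamin C and 0.968% for the untreated slope. Ccn4 read 4.81, 4.73, 4.49 and 3.58 with vitamin C on days 3 to 6, and 5.77, 5.51, 4.92 and 4.21 in untreated cells. Its vitamin C values of days 5 and 6 and its untreated value of day 6 lay under the median of all gene means (4.70). They are not known to be above background. The vitamin C difference was -0.70 ± 0.12 (limma adjusted p = 0.0369), and the slopes were -0.39 ± 0.09 with vitamin C and -0.53 ± 0.09 per day in untreated cells (limma adjusted p = 0.0224 and 0.0162). The vitamin C difference missed the threshold when any 1 of the 4 days was left out (-0.79 to -0.61), and it was -0.02 with the marker mean in place of day. The slope with vitamin C missed it without the day 6 array of that group (-0.16), and the untreated slope without the untreated array of day 3 or day 6. The other 5 relatives did not pass in any of these comparisons.

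**Figure D5:**
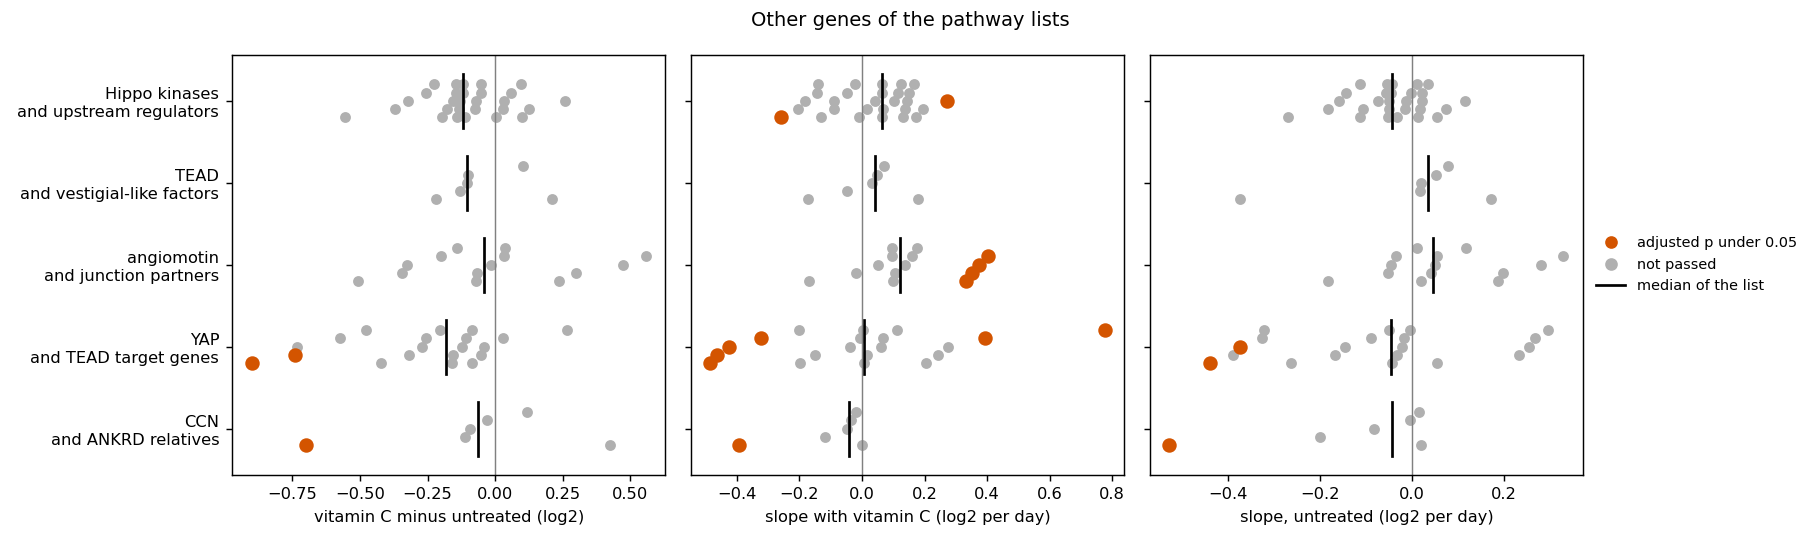
Estimates for 73 further pathway genes, in rows by list: vitamin C minus untreated (log2, left), slope with vitamin C (middle) and untreated slope (right, both log2 per day). Orange points passed an adjusted p under 0.05 and the black bar is the median of the list; the calls for treatment are Axl, Ccdc80 and Ccn4, all lower with vitamin C.

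For the difference in slope between the groups the limma test called 0 of these 73 genes. An unadjusted p under 0.05 was found for 7 of them and for 2244 of all 19938 genes. The smallest p-values per list belonged to Wwc1 (0.25 per day) and Dchs1 (-0.20) among the regulators, Vgll3 (0.20) and Tead3 (0.16), Mpdz (0.32) and Mpp5 (0.22) among the junction partners, Axl (-0.30) and Nt5e (-0.34) among the targets, and Ccn3 (0.17) and Ccn4 (0.14), with limma adjusted p-values from 0.223 to 0.727. Dchs1 and Ccn3 averaged under the median of all gene means (4.70) in both groups, Mpdz and Ccn4 with vitamin C. These levels are not known to be above background.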

How the data were processed

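The deposited data were 1 table of log2 values for 28853 probe sets on 8 Affymetrix arrays, which the authors deposited. The submitters' processing notes name RMA and Partek. The log base is inferred from the largest value, 13.8, and the sources used here give neither software version nor build. Per the labels, 100 ng of total RNA were labelled for each array. Of the probe sets, 21789 had 1 gene symbol in the platform annotation, 1621 had several and 5443 were not listed. The probe set with the highest mean stood for each of 19938 genes. RefSeq (GRCm38.p6) gave promoter windows and names, with Pals1 found as Mpp5. Of 78 list names, 73 matched.

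limma 3.58.1 in R 4.3.3 fitted treatment with day as a factor (3 residual and 6.03 prior degrees of freedom), and a slope on day per treatment (4 and 6.43), with Benjamini-Hochberg adjustment over all genes, two-sided, at 0.05, and errors are moderated standard errors. The 2 arrays of a day were paired by the day in the labels. Their deviations had correlations of 0.371 (day 3), 0.18 (day 4), 0.125 (day 5) and 0.475 (day 6). A course in time shared by the groups can also give such values, so they do not check the pairing. With 1 array per treatment and day, the errors and p-values measure no spread between replicates. In the treatment model they rest on how the difference varied between days. In the slope model they rest on departures from a straight line. The labels do not say that days were separate cultures, and part of this variation may be technical. With 4 arrays per group, precision is low.

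The members, lists and tests were chosen with earlier results of these data known. Of the lists, genes past the threshold (at most 6 per list and comparison) or the 2 with the smallest p were named. For Ankrd1 and Amot the 5 nearest profiles were named, without predicted genes and olfactory or vomeronasal receptors. Alternatives changed the normalization, dim gene filter, probe set choice, eBayes options, threshold, use of day and arrays included. Tables were handled in pandas 2.3.3 under Python 3.11.15 and drawn with matplotlib 3.10.9.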

Additional observations from a re-analysis of the deposited data

Results flagged for a closer look

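The 33 named genes were looked at in each treatment group. Of 66 groups of 4 arrays, 2 held an array that stood far from the other 3. The cut-off is one that replicates would pass in 1 in 20 groups. Mpp5 read 6.56 in the untreated array of day 3, below the other untreated arrays at 6.91 to 6.96. Thbs1 read 10.3 in the vitamin C array of day 3, above the others at 9.61 to 9.67. The 4 arrays of a group are 4 different days and not replicates, so that rate does not apply to them.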

How the results depend on the processing

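The treatment and slope contrasts of the 10 genes held 6 calls, and 5 of them were lost under at least 1 alternative, in 17 of 83 recomputations: Ankrd1 for vitamin C in 4, Tead4 for the slope with vitamin C in 5, Ccn1 for that slope in 2 and for the untreated slope in 4, and Amot for the untreated slope in 2. These counts are a description from which nothing is read, since Ankrd1 and Amot were chosen by these contrasts. The slope difference of Amot passed in 3 alternatives. The number of the 73 pathway genes called for vitamin C over days was 3, against 1 with quantile normalization again, 5 with dim genes left out, 7 with trend and robust options, 6 at an adjusted p under 0.10, 5 with day as a number, 0 without the pairing by day (no replicate block), 0 with the marker mean in place of day, and 0 to 2 with a day left out (0 without day 4 or day 5). For the slope with vitamin C it was 13, and 1 to 13 with an array left out (8 without the vitamin C array of day 3, 1 without that of day 6). For the untreated slope it was 3, against 7 with dim genes left out, 9 with trend and robust options, 7 at an adjusted p under 0.10, and 0 to 4 with an array left out (0 without the untreated array of day 3 or day 6). For the slope difference it was 0, and 0 to 1 with an array left out. Over all alternatives, the genes called of 19938 ran from 3 to 384 for vitamin C (main 150), 270 to 2917 for the slope with vitamin C (1722), 8 to 782 for the untreated slope (349) and 0 to 80 for the slope difference (13). The block on day left the slope difference of Amot at 0.70 (limma adjusted p = 0.0873). Leaving out a day or an array also leaves fewer degrees of freedom, and the cause of the other changes was not tested.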

Other observations

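The 9 trophoblast markers are genes of the outer lineage in which TEAD4 and YAP act in the mouse embryo. Of them, 6 rose with time in vitamin C cells, 0 fell and 3 did not pass. Over all genes 5.25% were called upward and 3.39% downward. The 6 were Krt7 (1.22 per day), Plac1 (0.89), Ascl2 (0.58), Eomes (0.45), Gata3 (0.43) and Elf5 (0.29), with limma adjusted p-values from 0.00095 to 0.014. In untreated cells 1 of 9 rose, Eomes (0.37 per day, limma adjusted p = 0.0228), beside 0.782% of all genes. For the slope difference 1 of 9 passed, Plac1 (1.08 per day, limma adjusted p = 0.0325), beside 0.0652% of all genes. For vitamin C over days 1 of 9 was higher, Elf5 (0.94 ± 0.13, limma adjusted p = 0.0191), beside 0.537% of all genes. Cdx2, an early trophectoderm factor, averaged 3.26 with vitamin C and 3.59 in untreated cells and did not pass. Cdx2, Elf5, Hand1 and Plac1 lay under the median of all gene means (4.70). The list was compiled with earlier results of these data known, and no alternative settings were run for it.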
